A study of Mus musculus with 9 samples.

Results

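Netrin, Slit, Robo and Dcc genes encode a set of secreted axon guidance cues and their receptors. The 10 genes described here were taken by name from 54532 genes counted in mouse neural tube organoids: the ligand genes Ntn1, Slit1, Slit2 and Slit3, and the receptor genes Dcc, Neo1, Unc5b, Robo1, Robo2 and Robo3. All 10 were among the 16772 genes that passed the filter on low counts. Organoids were grown clonally in Matrigel in neural differentiation medium (N2B27) from mouse embryonic stem cells. All groups come from 1 stem cell line, R1, with the FoxA2-Venus genotype, in which a fluorescent reporter marks the floor plate gene Foxa2. From Day 2 the medium held either retinoic acid (RA), a vitamin A derivative that patterns the neural tube, or SAG, a small molecule that activates Smoothened in the hedgehog pathway. The RA dose is given as 250 nM in one place of the labels and as 250 µM in another, and the SAG dose is not given in the sources used here. SAG is named only in the sample titles, and its medium is taken here to lack RA. Cells were collected 66 h after Day 2 and sorted by fluorescence. There were 3 groups of 3 libraries: RA GFP- and RA GFP+, the cells of low and high fluorescence from RA organoids, and SAG GFP+, the cells of high fluorescence from SAG organoids. No SAG GFP- group was analysed here. The titles call the replicates biological, and no label says whether they came from separate cultures, so p-values measure the spread between these libraries.

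Total counts ran from 25281871 to 29763765 per library. Levels are given in CPM, a count scaled to a library of 1000000 counts in tested genes. Foxa2, the gene behind the sort, was at 2.47, 1.33 and 2.51 CPM in RA GFP-, 184, 157 and 133 CPM in RA GFP+, and 326, 212 and 205 CPM in SAG GFP+, so the groups did not overlap. The summed level of 10 floor plate markers was 89.8 to 120 CPM in RA GFP-, 664 to 717 CPM in RA GFP+ and 862 to 986 CPM in SAG GFP+. That of 6 neural progenitor markers was 1030 to 1150, 337 to 514 and 1010 to 1080 CPM, and no marker of either list was at 0 counts in a whole group. Members of the progenitor list went both ways between RA GFP- and SAG GFP+. There Sox1 was called higher in SAG GFP+ (means of 69.7 and 203 CPM). Pax6 (125 and 8.94 CPM) and Fabp7 (96.0 and 55.4 CPM) were called lower. The libraries also held transcripts of genes listed as markers of other cells. The 7 pluripotency markers summed to 813 to 1330 CPM in RA GFP- and 48.0 to 61.9 CPM in RA GFP+. In SAG GFP+ they summed to 63.6 and 72.4 CPM in replicates 2 and 3 and to 231 CPM in replicate 1, which stood apart. Most of the sum in replicate 1 was Pou5f1 at 171 CPM, against 37.4 and 39.3 CPM in replicates 2 and 3. Nanog and Tdgf1 were at 26.9 and 20.5 CPM in replicate 1, and Zfp42, Dppa5a and Esrrb at 0.204, 1.22 and 2.00 CPM. The 9 mesenchyme markers summed to 17.9 to 23.1, 61.8 to 64.1 and 31.6 to 49.0 CPM in RA GFP-, RA GFP+ and SAG GFP+. Members of this list went both ways. In RA GFP+ against RA GFP- Dcn, Col1a2, Pdgfra, Foxf2 and Osr1 were called higher and Col3a1 lower. Col1a1, Twist1 and Prrx1 were not called there, and Osr1 was at 0 counts in SAG GFP+. In the same order of groups the 8 endoderm markers summed to 103 to 150, 153 to 291 and 52.7 to 191 CPM. Most of the endoderm sum was Cdh1 (means of 70.4, 112 and 69.2 CPM) and Epcam (50.8, 39.7 and 32.0 CPM). Sox17 had means of 1.33, 46.3 and 0.424 CPM, and Afp was at 0 counts in RA GFP- and SAG GFP+. Sox17, Afp, Gata4 and Gata6 were called higher in RA GFP+ than in RA GFP-, and Cdh1, Epcam and Foxa3 were not called. The 6 neural crest markers summed to 36.0 to 36.5, 47.6 to 58.8 and 34.4 to 50.6 CPM. Members of the neural crest list went both ways: in RA GFP+ against RA GFP- Ets1 and Sox10 were called higher and Foxd3, Tfap2a and Tfap2b lower, and Ets1 alone had means of 10.1, 37.9 and 30.1 CPM. The part of these cells in the differences below was not tested.

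The floor plate is the ventral midline of the neural tube and acts as a signalling centre for axons. Netrin-1, the product of Ntn1, attracts commissural axons toward the midline through Dcc and the related receptor neogenin (Neo1), while receptors of the Unc5 family mediate repulsion. Slit proteins from the midline repel axons that carry Robo1 or Robo2, and Robo3, a divergent member of the Robo family in commissural neurons, lowers sensitivity to Slit before crossing.

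Promoters are shown for Slit2, Slit3 and Robo3 because these genes of 1 pathway differed from each other in the results below. Slit3 was higher in both GFP+ groups than in RA GFP-, and Robo3 was lower in both. In the fit used for the results below Slit2 passed the test in neither. It passed in both with the replicate block described below. It also passed without the filter on low counts, a setting that gave smaller p-values for other members too. Each window covers 250 bases before and 50 bases after an annotated start in RefSeq (build GRCm38.p6), printed 5′ to 3′ on the strand of the gene. RefSeq windows were matched for 7 of the 10 genes. Slit2 is at chr5:47982905-47983204 on the + strand, Slit3 at chr11:35121206-35121505 on the + strand and Robo3 at chr9:37433126-37433425 on the - strand. Capitals mark a match to the FOXA core motif TNTTTAC.
Slit2: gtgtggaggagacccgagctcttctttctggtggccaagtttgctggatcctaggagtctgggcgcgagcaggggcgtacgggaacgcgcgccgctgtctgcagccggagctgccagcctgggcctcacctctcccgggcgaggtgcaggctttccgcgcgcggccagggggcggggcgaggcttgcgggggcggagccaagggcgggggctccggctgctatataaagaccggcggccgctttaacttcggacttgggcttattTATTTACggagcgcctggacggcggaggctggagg
Slit3: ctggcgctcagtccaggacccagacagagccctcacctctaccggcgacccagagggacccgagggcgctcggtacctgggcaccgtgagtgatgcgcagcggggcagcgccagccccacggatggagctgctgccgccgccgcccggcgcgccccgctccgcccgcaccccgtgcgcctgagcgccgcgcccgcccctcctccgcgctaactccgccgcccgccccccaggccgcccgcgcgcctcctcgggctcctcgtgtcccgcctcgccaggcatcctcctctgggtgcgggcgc
Robo3: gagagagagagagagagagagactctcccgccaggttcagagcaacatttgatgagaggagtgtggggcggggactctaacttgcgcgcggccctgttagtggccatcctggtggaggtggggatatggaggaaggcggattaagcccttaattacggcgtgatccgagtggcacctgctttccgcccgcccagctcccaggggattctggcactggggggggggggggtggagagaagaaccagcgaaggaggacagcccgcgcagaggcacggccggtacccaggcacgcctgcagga
The Slit3 window was 78.3% G or C with 41 CpG dinucleotides, the Slit2 window 68.0% with 30, and the Robo3 window 63.3% with 17, against a median of 52.7% G or C over 32851 promoter windows. A set of 4 motifs was searched on both strands: the FOXA core, the GLI core GGGTGGTC, the retinoid receptor half-site AGGTCA and the proneural E-box CAGCTG. They were present in 12.4%, 0.807%, 16.3% and 16.3% of all windows. None of these motifs overlapped another in the windows of the 7 genes. The Slit2 window held 1 FOXA core at bases 266 to 272, after the start site, and 1 of the windows of Robo2 held the E-box at bases 214 to 219. No other match was found in the windows of Slit2, Slit3, Robo1, Robo2, Robo3, Unc5b and Neo1. A match is a description of the letters, and its absence says nothing of the factor.

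The first comparison asked how GFP+ cells differed from GFP- cells under RA. Of the 10 genes, 4 were higher in RA GFP+ (Ntn1, Slit1, Slit3 and Unc5b) and 2 were lower (Robo3 and Dcc), at a p under 0.05 in edgeR's quasi-likelihood test, adjusted by Benjamini and Hochberg over all tested genes. Among all tested genes 16.9% were called in this comparison, 8.49% higher and 8.43% lower. The median log2 fold change was 1.75 over the 4 ligand genes and -0.219 over the 6 receptor genes, beside -0.0183 over all tested genes. With the replicate number as a block and only the RA libraries fitted, every member except Neo1 passed, 9 of 10, where 32.2% of all genes were called. The second comparison set SAG GFP+ against RA GFP+, that is, cells of high fluorescence from the 2 media. Slit3 was higher in SAG GFP+ and Robo1 and Robo3 were lower, so 3 of 10 genes were called where 24.5% of all genes were, 9.78% higher and 14.8% lower. The median log2 fold change was 0.255 over the ligand genes and -0.488 over the receptor genes, beside -0.0167 over all genes. The third comparison set SAG GFP+ against RA GFP-, which differ in both medium and sort. Ntn1, Slit1 and Slit3 were higher and Robo1, Robo3 and Dcc were lower, so 6 of 10 genes were called where 28.5% of all genes were, 12.0% higher and 16.5% lower. The median log2 fold change was 2.00 over the ligand genes and -0.937 over the receptor genes, beside -0.00868 over all genes. The comparisons share libraries pairwise, so they are not independent of each other. Groups did not overlap for 36.4%, 42.9% and 41.1% of all tested genes in the 3 comparisons, which is the background for each statement on overlap below. In bulk samples, fewer cells of a type and less RNA per cell cannot be told apart.

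**Figure D1:**
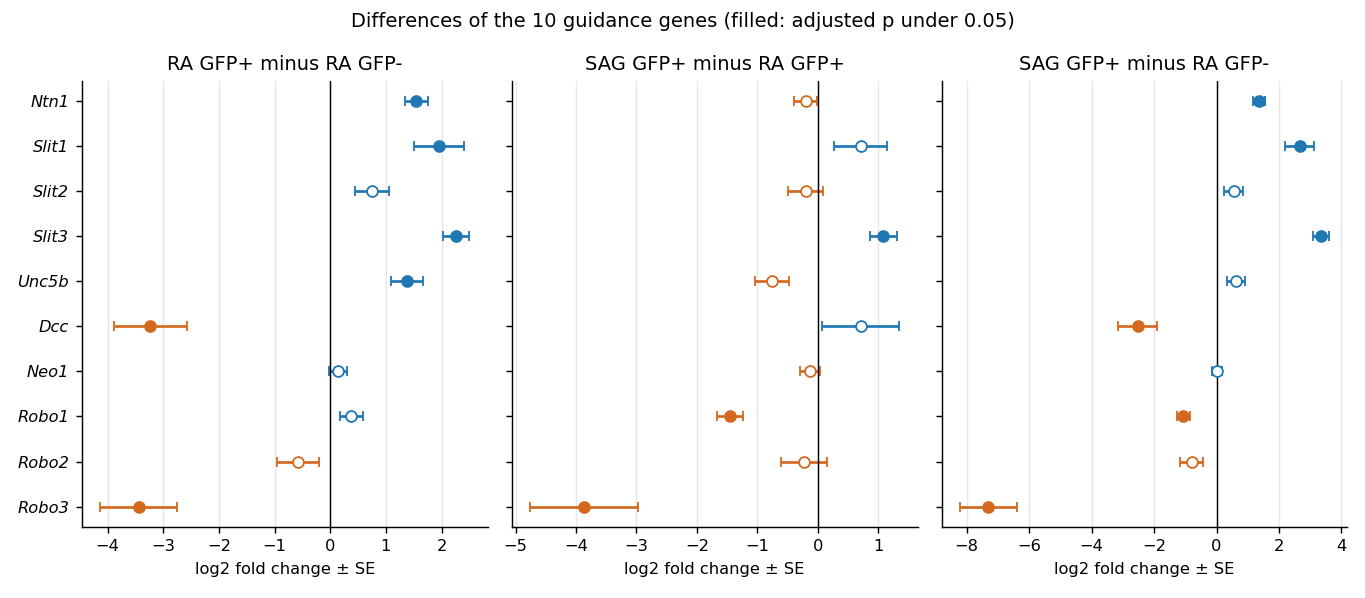
Log2 fold change (x axis) of each of the 10 guidance genes (y axis) in the 3 comparisons, with bars of 1 standard error from the edgeR fit and filled points for adjusted p under 0.05; the x axes differ between panels. Robo3 lies at the far left in all 3 panels, at -3.44, -3.87 and -7.30, and Slit3 is filled to the right of 0 in all 3, at 2.26, 1.09 and 3.35.

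Ntn1 (ENSMUSG00000020902, GRCm38 chromosome 11, 68209364 to 68400823, - strand) encodes the midline attractant netrin-1. Its level was 145, 170 and 194 CPM in RA GFP-, 390, 454 and 646 CPM in RA GFP+, and 355, 498 and 442 CPM in SAG GFP+. Every GFP+ library was above every GFP- library, and the 2 GFP+ groups overlapped. The log2 fold change between RA GFP+ and RA GFP- was 1.55 (SE 0.20, adjusted p = 0.000344), and between SAG GFP+ and RA GFP- it was 1.35 (SE 0.19, adjusted p = 0.000416). Between the GFP+ groups the difference of -0.20 (SE 0.19, adjusted p = 0.48) did not pass the test, and it was 0.03 without RA GFP+ replicate 3.

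Slit1 (ENSMUSG00000025020, chromosome 19, 41600257 to 41743665, - strand), a midline repellent, was at 34.7, 27.5 and 63.3 CPM in RA GFP-. It was at 92.2, 131 and 261 CPM in RA GFP+ and at 127, 324 and 343 CPM in SAG GFP+. Both GFP+ groups lay above all GFP- libraries, and replicates varied more, relative to their mean, than those of Ntn1. The log2 fold change of RA GFP+ against RA GFP- was 1.95 (SE 0.45, adjusted p = 0.0116). It missed the threshold without RA GFP- replicate 1 (1.84, adjusted p = 0.0533) or replicate 2 (1.72, adjusted p = 0.051), and over all alternatives its adjusted p ran from 1.14e-13 to 0.0533. The log2 fold change of SAG GFP+ against RA GFP- was 2.66 (SE 0.46, adjusted p = 0.00138), and the difference between the GFP+ groups, 0.71 (SE 0.44, adjusted p = 0.264), did not pass the test.

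Slit3 (ENSMUSG00000056427, chromosome 11, 35121224 to 35708507, + strand), another repellent of the family, was the only member to rise in all 3 comparisons. It was at 12.0, 11.5 and 14.1 CPM in RA GFP-, at 72.5, 56.5 and 50.8 CPM in RA GFP+ and at 79.8, 146 and 157 CPM in SAG GFP+. No 2 groups overlapped. The log2 fold change was 2.26 (SE 0.24, adjusted p = 0.000116) for RA GFP+ against RA GFP- and 1.09 (SE 0.23, adjusted p = 0.00515) for SAG GFP+ against RA GFP+. Against RA GFP-, SAG GFP+ was 10.2-fold higher (log2 fold change 3.35, SE 0.25, adjusted p = 4.59e-06).

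Slit2 (ENSMUSG00000031558, chromosome 5, 47983138 to 48307733, + strand) is the Slit with the best known role at the midline of the nervous system. It was at 21.4, 37.4 and 50.8 CPM in RA GFP-, at 40.8, 60.0 and 83.8 CPM in RA GFP+ and at 48.2, 54.3 and 57.7 CPM in SAG GFP+, so all groups overlapped. The log2 fold change of RA GFP+ against RA GFP- was 0.75 (SE 0.30, adjusted p = 0.113). With the replicate block and only the RA groups the value was 0.77 (adjusted p = 0.000299). The GFP+ to GFP- log2 ratios within numbers were 0.93, 0.68 and 0.72. Over all alternatives the adjusted p ran from 0.000299 to 0.353. The other comparisons of Slit2 gave -0.20 (SE 0.29, adjusted p = 0.654) between the GFP+ groups and 0.55 (SE 0.30, adjusted p = 0.19) for SAG GFP+ against RA GFP-.

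**Figure D2:**
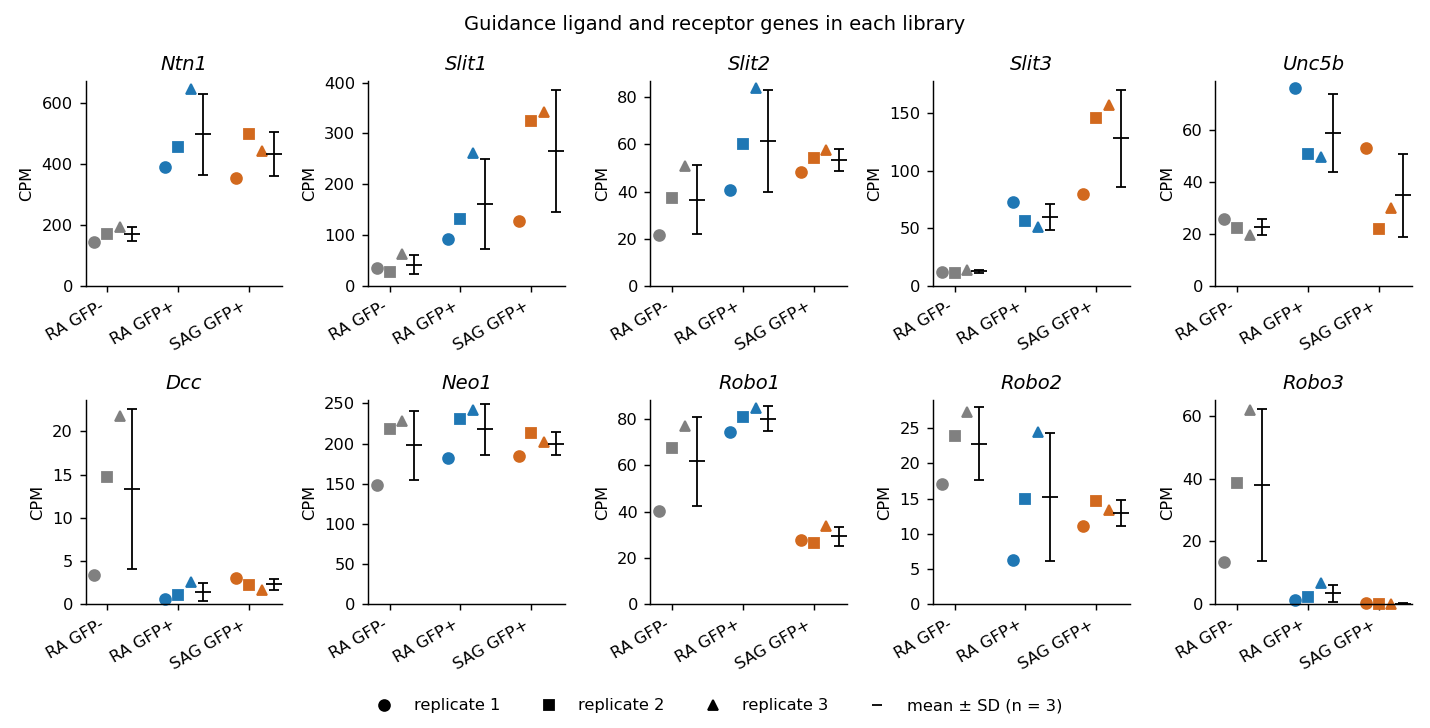
Level in CPM (y axis, linear, a scale of its own in each panel) of the 10 guidance genes in the 9 libraries, by group (x axis), with 1 symbol per library and bars for the mean ± SD (n = 3). Slit3 climbs from a mean of 12.5 CPM in RA GFP- to 59.9 in RA GFP+ and 128 in SAG GFP+, while Robo3 goes from 37.9 to 3.48 and 0.239 CPM.

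Among the receptors of netrin, Dcc (ENSMUSG00000060534, chromosome 18, 71253634 to 72351069, - strand), which mediates attraction, was at 3.42, 14.7 and 21.8 CPM in RA GFP-. It was at 0.588, 1.04 and 2.58 CPM in RA GFP+ and at 3.01, 2.25 and 1.67 CPM in SAG GFP+. All GFP+ libraries lay below all GFP- libraries, and the lowest GFP- library was close to the highest GFP+ libraries. RA GFP+ was 9.39-fold lower than RA GFP- (log2 fold change -3.23, SE 0.66, adjusted p = 0.00582), and the log2 value was -4.01 without RA GFP+ replicate 3. SAG GFP+ was 5.74-fold lower than RA GFP- (log2 fold change -2.52, SE 0.63, adjusted p = 0.0119). It missed the threshold when SAG GFP+ replicate 3 was omitted (-2.32, adjusted p = 0.0506, the highest over all alternatives, from 6.75e-08).

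Neo1 (ENSMUSG00000032340, chromosome 9, 58874687 to 59036441, - strand) encodes neogenin, the relative of Dcc. Its levels were 149, 218 and 228 CPM in RA GFP-, 182, 231 and 242 CPM in RA GFP+ and 184, 213 and 202 CPM in SAG GFP+, with all groups overlapping. The log2 fold changes were 0.14 (SE 0.17, adjusted p = 0.624), -0.13 (SE 0.17, adjusted p = 0.608) and 0.01 (SE 0.17, adjusted p = 0.969) in the order of the comparisons above. Neo1 took most of the summed level of Dcc and Neo1 per base of exon: the share of Dcc was 3.91% ± 2.25 (SD, n = 3) in RA GFP-, 0.404% ± 0.261 (SD, n = 3) in RA GFP+ and 0.771% ± 0.272 (SD, n = 3) in SAG GFP+.

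Unc5b (ENSMUSG00000020099, chromosome 10, 60762593 to 60831581, - strand), a repulsive netrin receptor also known in endothelial cells, went the other way from Dcc under RA. It was at 25.7, 22.3 and 19.6 CPM in RA GFP- and at 75.8, 50.6 and 49.6 CPM in RA GFP+, with no overlap (log2 fold change 1.38, SE 0.29, adjusted p = 0.00665). In SAG GFP+ it was at 52.8, 21.9 and 29.9 CPM, within the span of the RA groups. SAG GFP+ differed from RA GFP+ by -0.75 on the log2 scale (SE 0.28, adjusted p = 0.0753). Without SAG GFP+ replicate 1, the library whose pluripotency sum was high mostly through Pou5f1, the value was -1.16 (adjusted p = 0.00407). Over all alternatives the adjusted p ran from 0.00224 to 0.276. Against RA GFP- the difference was 0.63 (SE 0.29, adjusted p = 0.122). The 5 endothelial markers summed to 48.3 to 73.5 CPM in RA GFP-, 12.5 to 19.4 CPM in RA GFP+ and 1.61 to 2.20 CPM in SAG GFP+. In RA GFP- most of this sum was Pecam1, which had means of 56.2, 6.36 and 0.638 CPM in RA GFP-, RA GFP+ and SAG GFP+. Tek, Kdr and Cdh5 had means of only 3.41, 2.29 and 0.649 CPM in RA GFP-. All 7 pluripotency markers were, like Pecam1, called lower in both GFP+ groups than in RA GFP-, and between the GFP+ groups they went both ways. Between the RA groups the list went both ways: Pecam1 was called lower, Tek higher (3.41 to 7.10 CPM, log2 fold change 1.06, adjusted p = 0.0251), and Kdr (-0.05) and Cdh5 (-0.73) were not called. In SAG GFP+ all 4 were called lower than in each RA group. Emcn was at 0 in RA GFP- and SAG GFP+, and Cdh5 was at 0 in SAG GFP+. The part of endothelial cells in the levels of Unc5b was not tested.

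Among the Slit receptors, Robo1 (ENSMUSG00000022883, chromosome 16, 72308306 to 73046095, + strand) was at 40.3, 67.7 and 77.0 CPM in RA GFP- and at 74.4, 80.9 and 85.0 CPM in RA GFP+. In SAG GFP+ it was at 27.9, 26.3 and 33.9 CPM, below all 6 RA libraries. The log2 fold change of SAG GFP+ was -1.45 against RA GFP+ (SE 0.21, adjusted p = 0.00049) and -1.07 against RA GFP- (SE 0.21, adjusted p = 0.00278). Between the RA groups the value was 0.38 (SE 0.21, adjusted p = 0.253). With the replicate block and only the RA groups it was 0.42 (adjusted p = 0.0387), and over all alternatives the adjusted p ran from 0.0387 to 0.576.

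Robo2 (ENSMUSG00000052516, chromosome 16, 73891839 to 74411825, - strand) lies 846 kb from Robo1 with no protein-coding gene between them. It was at 17.1, 23.9 and 27.3 CPM in RA GFP-, at 6.23, 15.0 and 24.4 CPM in RA GFP+ and at 11.1, 14.7 and 13.4 CPM in SAG GFP+. None of its differences passed the test: -0.58 (SE 0.38, adjusted p = 0.343) between the RA groups, -0.22 (SE 0.38, adjusted p = 0.706) between the GFP+ groups and -0.80 (SE 0.38, adjusted p = 0.135) for SAG GFP+ against RA GFP-. In the last comparison the groups did not overlap, as for 41.1% of all tested genes. With the replicate block and only the RA groups, the RA difference was -0.73 (adjusted p = 0.0233). Over all alternatives that adjusted p ran from 0.0233 to 0.695.

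Robo3 (ENSMUSG00000032128, chromosome 9, 37415669 to 37433246, - strand), the commissural member of the family, fell in all 3 comparisons. It was at 13.5, 38.5 and 61.7 CPM in RA GFP- and at 1.53, 2.22 and 6.70 CPM in RA GFP+. In SAG GFP+ it was at 0.530 and 0.187 CPM in replicates 1 and 2. Replicate 3 had 0 counts, which allows a level of up to 0.117 CPM by counting error. No 2 groups overlapped, and the RA GFP- libraries varied widely among themselves. RA GFP+ was 10.8-fold lower than RA GFP- (log2 fold change -3.44, SE 0.69, adjusted p = 0.00525), with a log2 value of -4.33 without RA GFP+ replicate 3. SAG GFP+ was 14.6-fold lower than RA GFP+ (log2 fold change -3.87, SE 0.89, adjusted p = 0.0087). This size rested on few counts: it was -2.98 without RA GFP+ replicate 3, -5.11 without SAG GFP+ replicate 1 and -3.28 without SAG GFP+ replicate 3, from 13, 5 and 0 counts in the SAG GFP+ libraries. Against RA GFP- the log2 fold change was -7.30 (SE 0.91, adjusted p = 0.000139), which became -8.54 without SAG GFP+ replicate 1 and -6.71 without SAG GFP+ replicate 3. A fitted fold of a gene with a library at 0 depends on the prior count and is no bound.

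Robo3 and Dcc are best known from neurons, and their levels are given beside neuronal markers. The 10 neuronal markers summed to 453 to 579 CPM in RA GFP-, 110 to 129 CPM in RA GFP+ and 469 to 720 CPM in SAG GFP+. All 10 fell in RA GFP+ against RA GFP-. In SAG GFP+ against RA GFP+, 9 of 10 rose and Dcx did not pass the test. In SAG GFP+ against RA GFP-, Stmn2 and Elavl4 rose and Dcx and Ina fell. Robo3 per 1000 CPM of the neuronal list was 29.9, 66.6 and 124 in RA GFP-, 13.9, 17.2 and 55.0 in RA GFP+ and 1.13, 0.300 and 0 in SAG GFP+. The RA groups overlapped on this scale, and SAG GFP+ lay below both. Dcc per 1000 CPM of the list was 7.56, 25.3 and 43.8 in RA GFP-, 5.35, 8.10 and 21.2 in RA GFP+ and 6.43, 3.59 and 2.32 in SAG GFP+. Here RA GFP+ overlapped both other groups, and SAG GFP+ lay below RA GFP-. The sums of the 8 commissural markers were 42.4 to 82.2, 35.8 to 58.6 and 75.8 to 115 CPM, and Atoh1 was at 5 counts in RA GFP- and 0 in the GFP+ groups, too few to compare. Of the 5 commissural markers tested, 2 rose and 1 fell in each of the first 2 comparisons, and 1 rose and 1 fell in the third. Among all tested genes 16.9%, 24.5% and 28.5% were called in these comparisons. The part of the neuronal markers in the differences of Robo3 and Dcc was not tested.

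**Figure D3:**
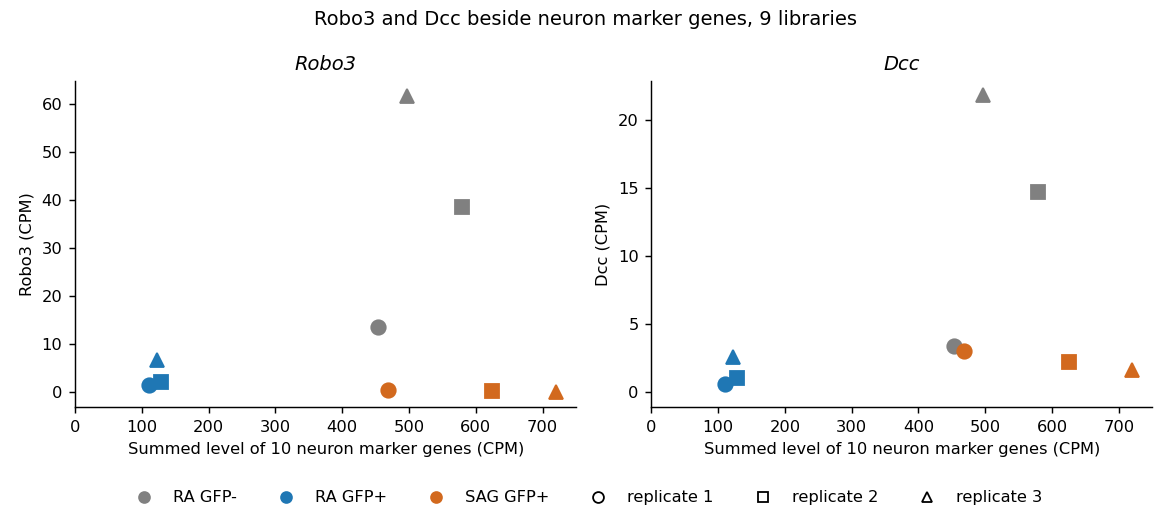
Robo3 and Dcc in CPM (y axes) against the summed level of 10 neuronal markers in CPM (x axis), 1 point per library, coloured by group, with the symbol giving the replicate number. The SAG GFP+ libraries have neuronal sums of 469 to 720 CPM, close to or above the 453 to 579 CPM of RA GFP-, with Robo3 at 0 to 0.530 CPM.

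Levels of different genes were compared per base of exon, in TPM, with the union of annotated exons as the length. In RA GFP- the highest were Ntn1 at 107 ± 21.2 TPM and Neo1 at 90.5 ± 24.5 TPM (SD, n = 3), and these overlapped. Slit1 at 28.1 ± 13.8, Robo3 at 22.4 ± 14.9, Robo1 at 14.9 ± 5.34 and Unc5b at 14.1 ± 1.08 TPM (SD, n = 3) followed. Slit3, Slit2, Robo2 and Dcc had means of 8.17, 5.76, 5.34 and 4.09 TPM. In RA GFP+ Ntn1 stood first at 325 ± 90.1 TPM (SD, n = 3), clear of all others. Slit1 at 112 ± 61.9 and Neo1 at 103 ± 17.1 TPM overlapped, as did Slit3 at 40.4 ± 6.66 and Unc5b at 38.2 ± 8.65 TPM (SD, n = 3). Robo1, Slit2, Robo2, Robo3 and Dcc had means of 19.9, 9.95, 3.69, 2.09 and 0.439 TPM. In SAG GFP+ the first places went to Ntn1 at 278 ± 48.7 and Slit1 at 181 ± 82.9 TPM, which overlapped, then Neo1 at 92.4 ± 7.59 and Slit3 at 85.1 ± 28.5 TPM (SD, n = 3), which overlapped. Unc5b, Slit2, Robo1, Robo2, Dcc and Robo3 had means of 22.4, 8.48, 7.18, 3.10, 0.707 and 0.140 TPM. Slit1 also overlapped Neo1 and Slit3 in SAG GFP+. Parts of this order depend on the length used: over 9 libraries the mean by the union of exons and by the longest transcript was 8.06 and 15.3 TPM for Slit2, 14.0 and 22.6 TPM for Robo1 and 4.04 and 5.92 TPM for Robo2. By the longest transcript Robo1 stood at 24.1 TPM in RA GFP-, above Robo3 at 22.7 and Slit1 at 21.7 TPM.

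The 3 Slit genes summed to 42.0 TPM in RA GFP-, 162 TPM in RA GFP+ and 274 TPM in SAG GFP+, whereas Robo1, Robo2 and Robo3 summed to 42.7, 25.7 and 10.4 TPM. By the longest transcript the Slit sums were 39.6, 140 and 229 TPM and the Robo sums 54.7, 39.8 and 16.3 TPM. Slit1 held 65.6% ± 6.78, 66.0% ± 12.8 and 64.5% ± 5.03 (SD, n = 3 each) of the Slit sum in the 3 groups. The share of Slit2 was 13.8% ± 4.36 in RA GFP-, 6.13% ± 0.750 in RA GFP+ and 3.49% ± 1.48 in SAG GFP+ (SD, n = 3 each), and that of Slit3 was 20.6% ± 4.45, 27.9% ± 13.0 and 32.0% ± 3.56. With the longest transcript as the length the Slit2 shares were 27.3%, 13.4% and 7.82%, in the same order. Within the Robo sum, Robo3 held 48.6% ± 11.4 in RA GFP-, 7.54% ± 4.69 in RA GFP+ and 1.43% ± 1.63 in SAG GFP+ (SD, n = 3 each). Robo1 held 37.5% ± 7.27, 78.9% ± 10.2 and 68.7% ± 4.18, and Robo2 held 13.9% ± 4.19, 13.6% ± 5.94 and 29.8% ± 4.30. In RA GFP- the Robo3 share was 36.4%, 50.5% and 59.0% in the 3 libraries. By the longest transcript the order in RA GFP- turned, with Robo1 at 46.3% and Robo3 at 38.2%, and Robo3 held 4.98% in RA GFP+ and 0.934% in SAG GFP+. These shares were not tested.

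**Figure D4:**
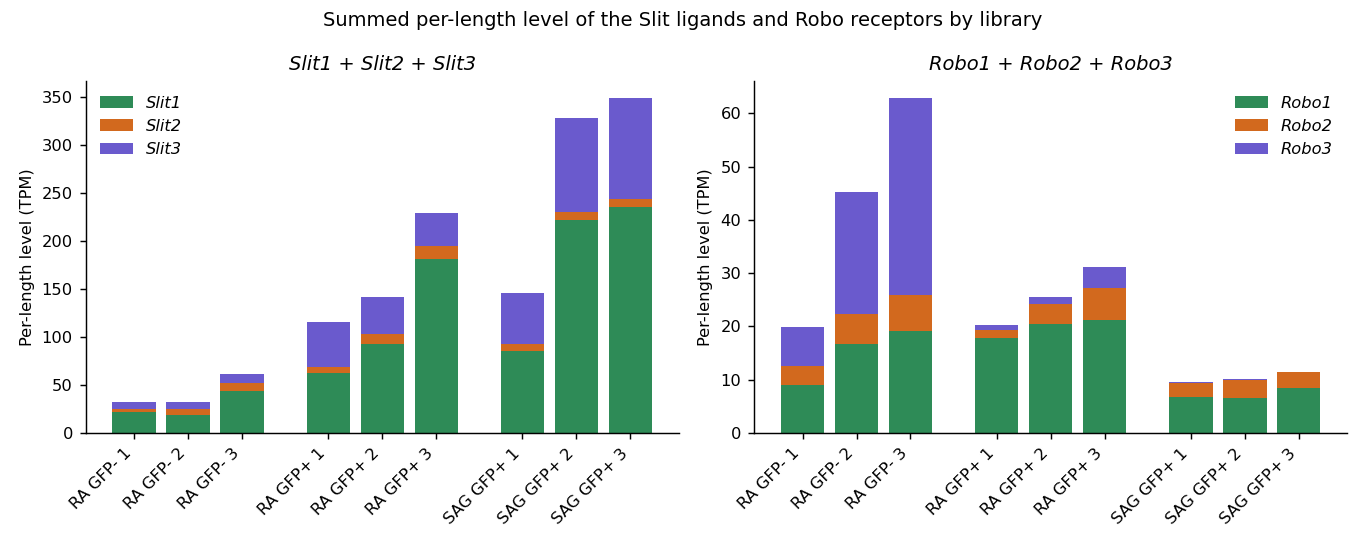
Stacked level per base of exon in TPM (y axis, from 0) of the Slit genes (left) and of Robo1, Robo2 and Robo3 (right), 1 bar per library (x axis). Robo3 makes up 48.6% of the Robo sum on average in RA GFP- and 1.43% in SAG GFP+, while Slit1 stays between 64.5% and 66.0% on average.

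Of 50 other genes listed for the pathway, 48 were tested. Ntn5 was below the filter with 25, 10 and 9 counts summed per group, and Ntn3 was not analysed here. In RA GFP+ against RA GFP-, 9 rose and 6 fell, and the median log2 fold change over the list was 0.164. Among all tested genes 8.49% were called higher and 8.43% lower there. With the replicate block and only the RA groups, 15 rose and 10 fell, where 32.2% of all genes were called. Without RA GFP+ replicate 2 only 9 were called. In SAG GFP+ against RA GFP+, 7 rose and 9 fell (median 0.00684), and in SAG GFP+ against RA GFP-, 10 rose and 6 fell (median 0.108). With library totals as the scale the latter split was 8 and 8. Of all tested genes 9.78% were called higher and 14.8% lower in SAG GFP+ against RA GFP+. Against RA GFP- the shares were 12.0% and 16.5%.

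Of 10 other ligand genes tested, 4 rose and 3 fell in RA GFP+ against RA GFP-, where 8.49% of all genes rose and 8.43% fell. Flrt3, a membrane protein that binds Unc5 receptors and Robo1, was at 25.6 ± 8.41 CPM in RA GFP- and 106 ± 17.9 CPM in RA GFP+ (SD, n = 3), a log2 fold change of 2.05 (SE 0.21, adjusted p = 8.92e-05). In SAG GFP+ it was at 46.6 ± 1.10 CPM, lower than in RA GFP+ by a log2 fold change of -1.19 (SE 0.21, adjusted p = 0.00157). Ntng1, a membrane-anchored netrin of the G family, rose from 0.359 ± 0.286 to 7.87 ± 3.81 CPM (SD, n = 3; log2 fold change 4.44, SE 0.60, adjusted p = 0.000538), and without RA GFP- replicate 2 the value was 5.15. In SAG GFP+ Ntng1 was at 2.43 ± 0.404 CPM, lower than in RA GFP+ (log2 fold change -1.69, adjusted p = 0.0309). Omitting any one of 4 libraries, RA GFP+ 1 or 2 or SAG GFP+ 2 or 3, ended this call. Draxin, a secreted repellent that binds netrin-1 and Dcc, fell from 16.0 ± 3.89 to 3.27 ± 1.33 CPM in RA GFP+ (SD, n = 3; log2 fold change -2.29, SE 0.32, adjusted p = 0.000594). In SAG GFP+ Draxin was at 4.43 ± 0.581 CPM. Flrt2, a relative of Flrt3, fell from 15.0 ± 5.09 CPM in RA GFP+ to 3.15 ± 0.909 CPM in SAG GFP+ (SD, n = 3; log2 fold change -2.25, SE 0.33, adjusted p = 0.000535). Rgma, a ligand of neogenin, was at 114 ± 14.6, 174 ± 6.24 and 309 ± 50.1 CPM in RA GFP-, RA GFP+ and SAG GFP+ (SD, n = 3 each). It rose in all 3 comparisons, with log2 fold changes of 0.61, 0.83 and 1.44 (adjusted p = 0.0106, 0.00132 and 2.78e-05). Nell2, a secreted ligand of Robo3 chosen here after its values were seen, had means of 44.2, 12.3 and 45.2 CPM. It fell in RA GFP+ against RA GFP- (log2 fold change -1.84, SE 0.38, adjusted p = 0.00593) and was higher in SAG GFP+ than in RA GFP+ (1.87, SE 0.38, adjusted p = 0.00389).

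Of 10 other receptor and co-receptor genes, 0 rose and 3, 4 and 4 fell in the order of the comparisons above. Among all tested genes 8.49%, 9.78% and 12.0% were called higher and 8.43%, 14.8% and 16.5% lower. A count of 0 higher among 10 genes is therefore near the background. DESeq2 also called 0 higher in each, and at an unadjusted p under 0.05 edgeR had 3 (Sdc1, Dscaml1 and Cdon), 1 (Dscam) and 0 higher. Boc, a hedgehog co-receptor that also acts in the guidance of commissural axons, was at 128 ± 28.9 CPM in RA GFP-, 46.4 ± 7.40 CPM in RA GFP+ and 17.8 ± 1.47 CPM in SAG GFP+ (SD, n = 3 each). It fell in all 3 comparisons, with log2 fold changes of -1.46, -1.39 and -2.84 (adjusted p = 0.000322, 0.000284 and 2.28e-06). Cdon, its relative, had 93.4 ± 26.0, 136 ± 39.7 and 33.3 ± 1.69 CPM (SD, n = 3 each) and fell in SAG GFP+ against both RA GFP+ (log2 fold change -2.03, SE 0.23, adjusted p = 0.000104) and RA GFP- (-1.49, SE 0.23, adjusted p = 0.000643). Unc5c, a repulsive netrin receptor, had 6.14 ± 1.70, 2.70 ± 0.618 and 1.54 ± 0.116 CPM (SD, n = 3 each). It fell in RA GFP+ against RA GFP- (log2 fold change -1.18, SE 0.30, adjusted p = 0.0191), where Unc5b rose. It did not pass when GFP- library 3, GFP+ library 1 or GFP+ library 2 was omitted (adjusted p up to 0.0844). In SAG GFP+ against RA GFP- Unc5c fell by 2.00 on the log2 scale (adjusted p = 0.000715). Robo4, the endothelial member of the Robo family, ends 553 bases from the end of Robo3 on the opposite strand. It was at 3.42, 2.44 and 1.90 CPM in RA GFP-, at 0.0392, 0.202 and 0.0698 CPM in RA GFP+ and at 0.122, 0.0749 and 0 CPM in SAG GFP+. The log2 fold changes from RA GFP- were -4.55 (SE 0.68, adjusted p = 0.000921) to RA GFP+ and -5.22 (SE 0.73, adjusted p = 0.00033) to SAG GFP+. They rested on 9 and 5 counts in the GFP+ groups: the first was -5.44 without RA GFP+ replicate 2 and the second -5.91 without SAG GFP+ replicate 1. Between the RA groups Pecam1 moved with Robo4, whereas Tek went the other way and Kdr and Cdh5 were not called. The part of endothelial cells in the differences of Robo4 was not tested. Sdc1, a heparan sulphate proteoglycan, had means of 94.7, 122 and 79.0 CPM and fell in SAG GFP+ against RA GFP+ (log2 fold change -0.63, SE 0.14, adjusted p = 0.00596). Between the RA groups, the replicate block with only those libraries also called Cdon (0.53, adjusted p = 0.00132) and Sdc1 (0.36, adjusted p = 0.00998), which had 0.54 (adjusted p = 0.133) and 0.36 (adjusted p = 0.0926) without it. It also called Dscaml1 higher (1.05, adjusted p = 0.036) and Unc5a lower (-1.69, adjusted p = 0.000212).

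Of 28 genes acting downstream of these receptors, 5 rose and 0 fell in RA GFP+ against RA GFP-, where 16.9% of all tested genes were called. Trim9, Srgap3 and Pak1 were lower there at an unadjusted p under 0.05 in edgeR, and DESeq2 called 1 of these 3, Pak1. In SAG GFP+ against RA GFP+, 3 rose and 2 fell, where 24.5% of all genes were called. In SAG GFP+ against RA GFP-, 7 rose and 1 fell, where 28.5% of all genes were called. In total the calls of the first and last of these comparisons lie near the share over all genes. Ablim1, an actin-binding protein linked to netrin signalling, was at 18.5 ± 4.09, 48.6 ± 3.24 and 26.3 ± 7.50 CPM (SD, n = 3 each). It rose in RA GFP+ against RA GFP- (log2 fold change 1.39, SE 0.22, adjusted p = 0.00124) and was lower in SAG GFP+ than in RA GFP+ (-0.89, SE 0.21, adjusted p = 0.0109), though not when SAG GFP+ replicate 2 was omitted (0.0539). Among the Slit-Robo GTPase-activating genes, Srgap1 rose in RA GFP+ from 32.5 ± 6.35 to 56.7 ± 8.70 CPM (SD, n = 3; log2 fold change 0.80, SE 0.18, adjusted p = 0.00987), though not when RA GFP+ replicate 2 was omitted (0.0545). Srgap3 was at 129 ± 47.0, 72.4 ± 29.7 and 332 ± 115 CPM (SD, n = 3 each). Between the RA groups it differed by -0.83 (adjusted p = 0.142), and by -0.84 (adjusted p = 0.000313) with the replicate block and only those libraries. It was higher in SAG GFP+ than in RA GFP+ (log2 fold change 2.20, SE 0.37, adjusted p = 0.00127) and than in RA GFP- (1.36, SE 0.36, adjusted p = 0.0152). The latter missed the threshold when RA GFP- library 1 or SAG GFP+ library 3 was omitted (0.0523 and 0.0519). Trio, a guanine nucleotide exchange factor downstream of Dcc, rose from 99.6 ± 30.7 CPM in RA GFP- to 179 ± 8.30 CPM in RA GFP+ (log2 fold change 0.84, SE 0.19, adjusted p = 0.00995) and to 224 ± 4.47 CPM in SAG GFP+ (1.17, SE 0.19, adjusted p = 0.000915). Fyn, a kinase of the Src family that phosphorylates Dcc, had means of 60.3, 74.2 and 126 CPM. It was higher in SAG GFP+ than in RA GFP+ (log2 fold change 0.76, SE 0.18, adjusted p = 0.00899) and than in RA GFP- (1.06, SE 0.18, adjusted p = 0.00111). Vasp, an actin regulator of the Ena/VASP family, had means of 109, 97.3 and 56.6 CPM. It fell in SAG GFP+ against RA GFP+ (log2 fold change -0.78, SE 0.17, adjusted p = 0.00596) and against RA GFP- (-0.95, SE 0.17, adjusted p = 0.00163).

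**Figure D5:**
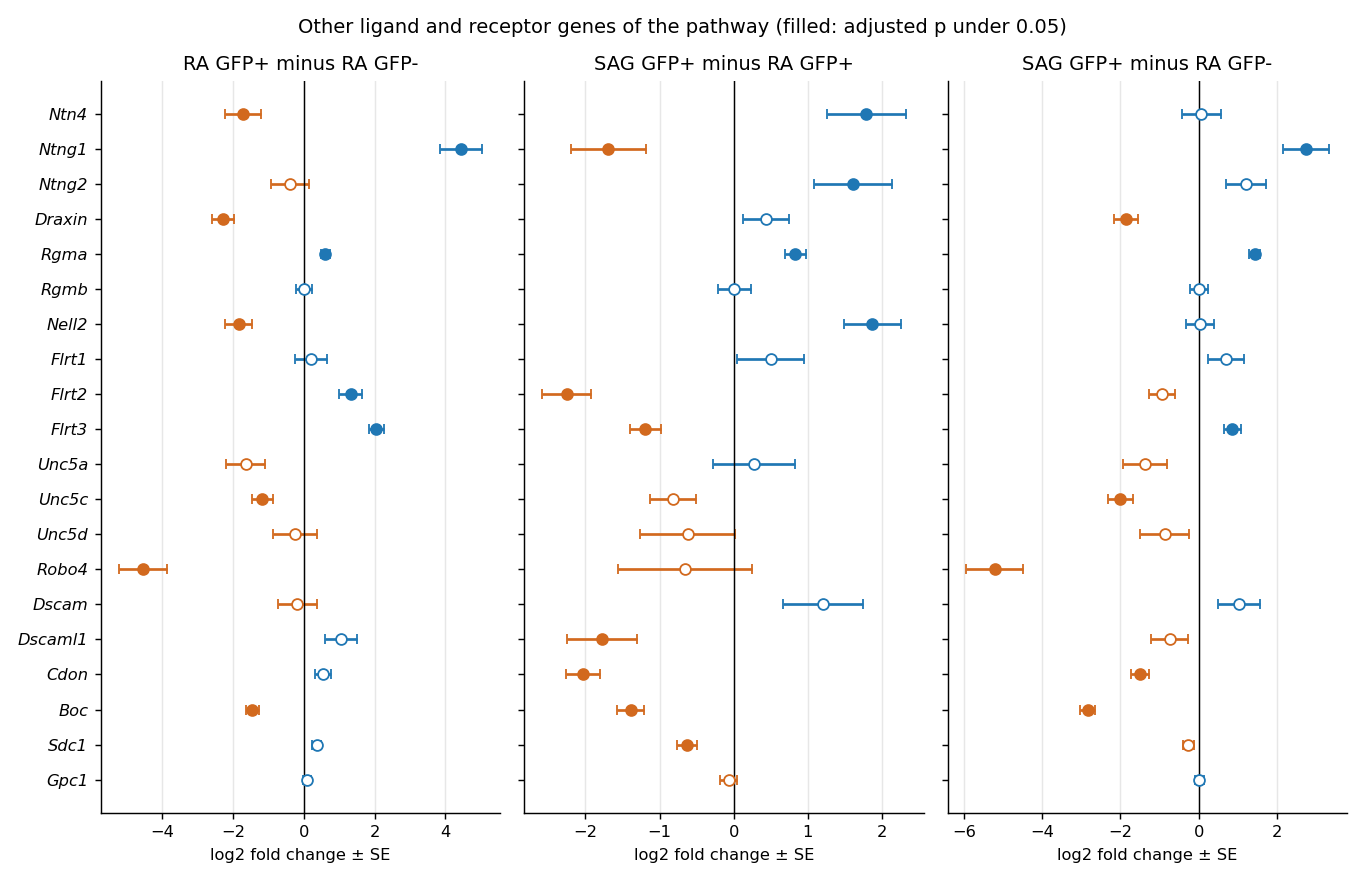
Log2 fold change in each comparison (x axis) of 10 other ligand genes (Ntn4 to Flrt3) and 10 other receptor and co-receptor genes (Unc5a to Gpc1; y axis), with bars of 1 standard error and filled points where the adjusted p was under 0.05; the x axes differ. No filled point of the 10 receptor and co-receptor genes lies to the right of 0 in this fit. Of all tested genes 8.49%, 9.78% and 12.0% were called higher in these comparisons, from left to right.

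Likeness of pattern was measured as the root mean square difference of centred log2 CPM profiles over the 9 libraries, among 11176 genes with a mean of at least 5 CPM. The genes nearest to Ntn1, whose profile had an SD of 0.718, were Pxdn at 0.21, Peg3 at 0.23, Pcdhga2 and Prtg at 0.24 and Ltbp1 at 0.25 on the log2 scale. The nearest gene was Camk1g to Slit1 (0.44), Myh10 to Slit2 (0.14), Olfml3 to Slit3 (0.31), Parvb to Robo1 (0.18), Ptprd to Robo2 (0.20), Disp3 to Dcc (0.45), Colec12 to Unc5b (0.25) and Magi3 to Neo1 (0.06). The nearest to Robo3 was Dbx1, a homeobox gene of interneuron progenitors, at 0.46. Dbx1 had means of 45.2, 3.35 and 0.0634 CPM in RA GFP-, RA GFP+ and SAG GFP+.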

How the data were processed

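Gene counts of 9 RNA-seq libraries (poly(A) selection, directional kit, per the labels' protocols) were used as deposited. Per the submitters' processing notes, which give no roles, the authors used build GRCm38, featureCounts of Subread 1.6.2, Bowtie2 2.3.4.1 and Trim Galore 0.5.0. No source used here gives the annotation release, the strand setting or the treatment of multiply mapped reads. Bowtie2 does not split reads over introns, so reads across exon junctions can be lost where the target is a genome.

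One edgeR 4.0.16 quasi-likelihood fit (R 4.3.3) of all 9 libraries used TMM scaling and genes passing a minimum count of 10, with Benjamini-Hochberg adjustment over 16772 genes. It was tested on simulated data. CPM were counts over tested-gene totals times TMM factors (0.9717 to 1.029). TPM used the union of exons of GENCODE M21, in which 54495 of 54532 gene IDs were found. Likeness of pattern used log2(CPM + 0.5); the pseudocount was added because Robo3 has a 0. Alternatives were DESeq2 1.42.0, RLE scaling, library totals, no low-count filter, only the groups compared, a replicate block, leaving out each library and transcript length.

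Replicate numbers were taken to pair the RA groups, from the data: deviations from group means correlated at 0.273, 0.307 and 0.347 for equal numbers. For SAG GFP+ and RA GFP+ the values were 0.111, -0.0816 and 0.182, and for SAG GFP+ and RA GFP- 0.175, -0.0218 and 0.242, so no pairing was taken there. The fit behind the main results held no replicate term, so between the RA groups it left the pairing out. Only the values given with the replicate block use it. A gene that missed the threshold between the RA groups in the main fit can therefore pass with the block.

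The members and gene lists were chosen with earlier results of these data known. Named beyond the 10 members were, per list and comparison, the 3 called genes of smallest adjusted p, plus the nearest genes by pattern (5 for Ntn1, 1 for each other member) and those said to be picked by value. An interval or floor covers counting error only.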

Additional observations from a re-analysis of the deposited data

How the results depend on the processing

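Between the RA groups, members called numbered 5 to 7 when single libraries were left out, 7 without a filter on low counts (11.9% of all genes called), and 7 (9 libraries, 22.7%) or 9 (only the 2 groups, 32.2%) with the replicate block. Other pathway genes called rose from 15 to 24 and 25 with the block and ran from 9 to 19 without single libraries. Slit2 passed at 0.77 without a filter (adjusted p = 0.00144), at 0.77 with each replicate block (adjusted p = 0.00794 with 9 libraries and 0.000299 with 2 groups) and at 1.07 without RA GFP- replicate 3. In the block of 2 groups Robo1 (0.42) and Robo2 (-0.73) also passed. Without a filter the adjusted p of Ntn1 and Slit1 fell too, to 1.11e-15 and 1.14e-13. That setting is therefore no separate support for Slit2. Leaving out single libraries gave 1.42 to 2.37 for Slit1, 0.47 to 1.07 for Slit2, -0.02 to 0.26 for Neo1 and -0.26 to 0.02 for Vasp. Among other pathway genes both blocks added Abl1, Cdon, Pak1, Sdc1, Sos1, Srgap3, Trim67, Trim9 and Unc5a, the block of 2 groups also added Dscaml1, and 0 calls were lost.

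Between the GFP+ groups, members called rose from 3 to 5 without a filter (15.8% of all genes called) and with either replicate block (32.0% and 28.8%), though replicate numbers did not pair these groups. Slit1 passed at 0.72 without a filter and at 0.76 and 0.73 with the blocks. Unc5b passed at -0.75 with DESeq2 and without a filter, at -0.80 and -0.81 with the blocks and at -1.16 without SAG GFP+ replicate 1. Without single libraries the ranges were -0.35 to 0.03 for Ntn1, -0.43 to 0.08 for Slit2, -0.60 to 0.29 for Robo2, -1.16 to -0.49 for Unc5b, -1.36 to 0.22 for Robo4 and -0.15 to 0.07 for Srgap1, which was 0.06 without RA GFP+ replicate 2.

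Between SAG GFP+ and RA GFP-, members called were 6, and 9, 9 and 8 without a filter and with the blocks (18.9%, 36.8% and 29.2% of all genes). Slit2 passed at 0.57 without a filter and at 0.64 and 0.62 with the blocks. Robo2 passed at -0.78 without a filter, -0.77 and -0.79 with the blocks and -0.81 with only the 2 groups. Unc5b passed at 0.65 without a filter and 0.55 with the block of 9 libraries. Neo1 was -0.05 with library totals. Without single libraries the ranges were -0.95 to -0.65 for Robo2, -2.96 to -1.97 for Dcc, 0.22 to 0.89 for Unc5b and -0.13 to 0.12 for Neo1, which was -0.01 without SAG GFP+ replicate 2.

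By longest transcript, mean levels were 15.3 TPM for Slit2, 22.6 for Robo1 and 5.92 for Robo2, against 8.06, 14.0 and 4.04. An alternative chosen after the data were seen, shares by longest transcript, gave 53.9% for Slit1 and 46.3% for Robo1 in RA GFP- and 27.3%, 13.4% and 7.82% for Slit2 in the 3 groups. The causes of these changes were not tested. Few counts limit Robo3, Robo4 and Dcc in the GFP+ groups.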

Other observations

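The 5 tested genes of the commissural list differed from each other in direction. Cntn2, an adhesion molecule of commissural axons, was at 20.5 ± 9.24 CPM in RA GFP-, 2.06 ± 0.630 CPM in RA GFP+ and 13.2 ± 5.96 CPM in SAG GFP+ (SD, n = 3 each). It fell in RA GFP+ against RA GFP- (log2 fold change -3.31, SE 0.42, adjusted p = 0.000364) and was higher in SAG GFP+ than in RA GFP+ (2.67, SE 0.41, adjusted p = 0.000739). Nrcam, a cell adhesion molecule of axons, had means of 36.9, 35.3 and 79.7 CPM and was higher in SAG GFP+ than in RA GFP+ (log2 fold change 1.17, SE 0.27, adjusted p = 0.00852) and than in RA GFP- (1.11, SE 0.27, adjusted p = 0.01). Barhl2, a homeobox gene of dorsal interneurons, was at 0.477 ± 0.263, 3.54 ± 1.84 and 0.0786 ± 0.0397 CPM (SD, n = 3 each). It rose in RA GFP+ against RA GFP- (log2 fold change 2.87, SE 0.58, adjusted p = 0.00537) and fell in SAG GFP+ against RA GFP+ (-5.42, SE 0.72, adjusted p = 0.000274) and against RA GFP- (-2.55, SE 0.77, adjusted p = 0.0286), from 6 counts in SAG GFP+. Lhx2, a LIM homeobox gene, rose in RA GFP+ against RA GFP- (1.40, SE 0.33, adjusted p = 0.0126), and L1cam passed in no comparison. These genes were described after their values were seen.

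Ntn4, a netrin of basement membranes also picked after its values were seen, fell in RA GFP+ against RA GFP- (log2 fold change -1.72, adjusted p = 0.043) and was higher in SAG GFP+ than in RA GFP+ (1.79, adjusted p = 0.0279).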
